A study of Mus musculus with 6 samples.

Results

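MicroRNAs (miRNAs), which are short RNAs that silence messenger RNAs, were counted in kidneys of 17-week-old female mice, with 3 libraries from C57BL/6 wild-type mice and 3 from MRL/lpr mice (MRL/MpJ-Fas<lpr>/J). In MRL/lpr mice Fas, a death receptor of lymphocytes, is disrupted by the lpr allele, and the animals develop lupus-like nephritis. The controls are of another strain, so genetic background, the Fas mutation and disease cannot be told apart, and no agent or treatment is named for either group. The labels do not say whether each library came from a separate animal, so p-values measure only the spread between these libraries. The miRNAs described here are miR-199 and miR-214, chosen by name as 6 of the 1542 entries in the count table: mmu-miR-199a-5p, mmu-miR-199b-5p, mmu-miR-199a-3p, mmu-miR-199b-3p, mmu-miR-214-5p and mmu-miR-214-3p. All 6 were found, and the counts of miR-199a-3p and miR-199b-3p were summed before testing, which left 5 rows.

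A miRNA hairpin is cut into a 5p and a 3p arm, and an arm pairs with its targets mainly through its seed, bases 2 to 8. miR-199 and miR-214 are known from mesenchymal cells such as fibroblasts, pericytes and vascular smooth muscle, and in the kidney both have been linked to scarring. Known targets include Cav1, an organiser of membrane caveolae, for miR-199a-5p, and Mtor, a growth kinase, for miR-199a-3p. The libraries come from whole kidney tissue, in which fewer cells of a type and less RNA per cell cannot be told apart.

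The hairpins lie at 4 places in the genome (GRCm38, GENCODE M21). Mir199a-2 lies at chr1:162217814-162217923 and Mir214 at chr1:162223368-162223477, both on the plus strand in exons of the long non-coding RNA Dnm3os and antisense to an intron of Dnm3, a dynamin gene. Only 5444 bases separate these hairpins, and Dnm3os is known as their shared primary transcript. Mir199b lies at chr2:32318460-32318569 on the plus strand, antisense to an intron of Dnm1. Mir199a-1 lies at chr9:21496495-21496564 on the minus strand, antisense to an intron of Dnm2.

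Mature sequences of 5 of the 6 members were found in RefSeq (GRCm38.p6), miR-199b-5p being the other. They are shown because the 3p arms of miR-199a and miR-199b are the same sequence, so that no read can be assigned to one of the names by its letters. Capitals mark the seed.
miR-199a-5p: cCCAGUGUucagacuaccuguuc
miR-199a-3p: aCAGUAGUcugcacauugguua
miR-199b-3p: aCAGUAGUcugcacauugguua
miR-214-5p: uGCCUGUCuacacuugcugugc
miR-214-3p: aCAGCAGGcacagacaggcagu
Of 1679 mature names in the RefSeq table, only miR-199a-3p and miR-199b-3p had the seed CAGUAGU. The seed of miR-214-3p differed from it at 2 of 7 positions and was shared with miR-761, which was not analysed here. No other mature sequence in that table had the seed of miR-199a-5p or of miR-214-5p. Because miR-199b-5p was missing from it, whether that arm shares the seed of miR-199a-5p could not be read.

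The hairpins of miR-199a are shown with their mature arms in capitals, beside that of miR-214. Both miR-199a hairpins give the same arms and differ in the loop and flanks, so counts of mature miR-199a do not say which locus they came from, whereas miR-214 comes from 1 locus.
Mir199a-2: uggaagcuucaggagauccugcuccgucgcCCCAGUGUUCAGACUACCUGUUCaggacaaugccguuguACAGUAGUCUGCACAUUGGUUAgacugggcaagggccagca
Mir199a-1: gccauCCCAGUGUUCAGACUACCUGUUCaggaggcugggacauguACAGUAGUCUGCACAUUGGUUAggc
Mir214: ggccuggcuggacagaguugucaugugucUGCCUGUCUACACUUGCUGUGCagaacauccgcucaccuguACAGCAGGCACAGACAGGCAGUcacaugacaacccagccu

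The libraries held 5259528 to 6773829 counts, and 450 rows passed the filter on low counts, all 5 member rows among them. Values are given as CPM (counts relative to the TMM-scaled library total), and CPM of different miRNAs are less comparable than CPM of 1 miRNA across libraries, because adapter ligation favours some ends. All 10 kidney epithelium miRNAs listed were tested, with summed levels of 73622 to 123622 CPM. Replicate 2 of C57BL/6 differed from the rest of its group. Its 7 leukocyte and myeloid miRNAs, such as miR-142a-3p of all leukocytes and miR-223-3p of granulocytes, summed to 28456 CPM against 5804 to 10664 CPM in the other 5 libraries. Most of that sum was miR-146a-5p, at 25569 CPM. It, miR-150-5p, miR-223-3p and miR-511-3p were highest of the 6 libraries there. By contrast, miR-142a-3p (88.8 CPM) and miR-155-5p (102.3 CPM) lay below every MRL/lpr library, and miR-142a-5p lay below MRL/lpr replicates 1 and 3. The kidney epithelium sum of C57BL/6 replicate 2 was the lowest of the 6, and its erythrocyte sum was 594 CPM against 2841 to 4304 CPM. The strain differences of the member rows and the arm differences below are therefore given with and without this library.

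None of the 5 member rows differed between MRL/lpr and C57BL/6 kidneys beyond the spread between libraries (edgeR quasi-likelihood test, Benjamini-Hochberg adjusted over 450 rows, threshold 0.05). Across all rows 30 were called, or 6.67%, with 20 higher (4.44%) and 10 lower (2.22%), or 24 and 5 with library totals in place of TMM, so 0 of 5 is not far from that background. None of the 5 had an unadjusted p under 0.05 either, and none was called with DESeq2 or limma-voom. The groups overlapped for all 5 rows, while they did not overlap for 28.7% of all rows. The log2 fold changes (MRL/lpr over C57BL/6) of the 5 rows were all below 0, with a median of -0.20. Over all 450 rows, 51.3% were below 0 and the median was -0.028.

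**Figure D1:**
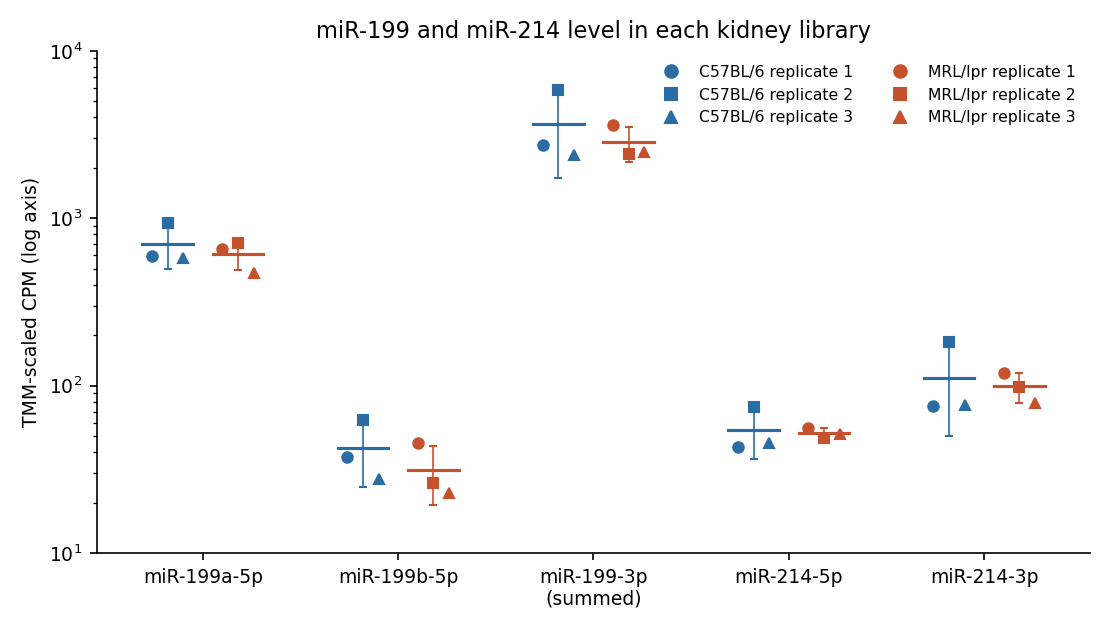
TMM-scaled CPM (log axis) of each member row in the 6 libraries, blue for C57BL/6 and red for MRL/lpr, with marker shapes for replicate numbers, horizontal lines for group means and bars for the SD (n = 3). C57BL/6 replicate 2 (blue square) is the highest library for all 5 rows. Apart from it, the groups intermix for the 3 miR-199 rows, while for both miR-214 rows the MRL/lpr libraries lie above C57BL/6 replicates 1 and 3.

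The summed 3p arm of miR-199 was the most abundant of the members, 44th by mean CPM in the whole table. It had 2736, 5852 and 2385 CPM in C57BL/6 replicates 1, 2 and 3 and 3617, 2432 and 2489 CPM in MRL/lpr replicates 1, 2 and 3. C57BL/6 replicate 2 was the highest and MRL/lpr replicate 1 the next, and the other 4 libraries lay between 2385 and 2736 CPM. Group means were 3658 ± 1908.4 CPM for C57BL/6 and 2846 ± 668 CPM for MRL/lpr (SD, n = 3), a log2 fold change of -0.36 ± 0.35 SE (95% interval -1.19 to 0.46; edgeR adjusted p = 0.598). Without C57BL/6 replicate 2 the log2 fold change was 0.18 ± 0.21 SE (interval -0.29 to 0.65; edgeR adjusted p = 0.612), so the direction rested on that library. In that fit 4 of the 5 member rows lay above 0, and so did 50.1% of all rows.

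Among the 5p arms, mmu-miR-199a-5p, the arm known to target Cav1 in fibroblasts, had 597, 939 and 575 CPM for C57BL/6 and 659, 710 and 471 CPM for MRL/lpr. C57BL/6 replicate 2 was the highest, and C57BL/6 replicates 1 and 3 lay within the range of the MRL/lpr libraries. The means were 704 ± 204 and 613 ± 126 CPM (SD, n = 3; log2 fold change -0.20 ± 0.25 SE, 95% interval -0.76 to 0.36, edgeR adjusted p = 0.681). Without C57BL/6 replicate 2 it was 0.084 ± 0.21 SE (edgeR adjusted p = 0.835).

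The 5p arm mmu-miR-199b-5p, named for the hairpin in Dnm1, was the least abundant member. It had 37.4, 62.2 and 27.7 CPM for C57BL/6 and 45.3, 26.4 and 22.8 CPM for MRL/lpr, from 136 to 387 counts. Replicate 1 of MRL/lpr was above C57BL/6 replicates 1 and 3, so the groups intermixed here too. The means were 42.4 ± 17.8 and 31.5 ± 12.1 CPM (SD, n = 3), and its log2 fold change of -0.43 ± 0.36 SE (95% interval -1.23 to 0.37, edgeR adjusted p = 0.558) was the farthest from 0 of the 5. It was -0.0089 ± 0.31 SE without C57BL/6 replicate 2 (edgeR adjusted p = 0.990).

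The 3p arm mmu-miR-214-3p, the more abundant arm of its hairpin, had 75.3, 183 and 76.5 CPM for C57BL/6 and 120, 98.6 and 78.8 CPM for MRL/lpr. All 3 MRL/lpr libraries lay above C57BL/6 replicates 1 and 3 and below C57BL/6 replicate 2. The means were 112 ± 61.8 and 99.0 ± 20.4 CPM (SD, n = 3; log2 fold change -0.17 ± 0.36 SE, 95% interval -0.98 to 0.63, edgeR adjusted p = 0.804). Without C57BL/6 replicate 2 the log2 fold change was 0.40 ± 0.24 SE, the farthest from 0 of the 5 in that fit (interval -0.14 to 0.95; edgeR adjusted p = 0.348).

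The other arm, mmu-miR-214-5p, showed the same arrangement. It had 43.0, 74.8 and 45.3 CPM for C57BL/6 and 55.9, 48.7 and 51.1 CPM for MRL/lpr, so the MRL/lpr libraries again lay above C57BL/6 replicates 1 and 3 and below C57BL/6 replicate 2. The means were 54.4 ± 17.8 and 51.9 ± 3.66 CPM (SD, n = 3; log2 fold change -0.067 ± 0.27 SE, 95% interval -0.66 to 0.53, edgeR adjusted p = 0.911). Without C57BL/6 replicate 2 it was 0.25 ± 0.20 SE (edgeR adjusted p = 0.474), and with library totals in place of TMM, which moved the median of all rows by 0.15, it was 0.072.

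**Figure D2:**
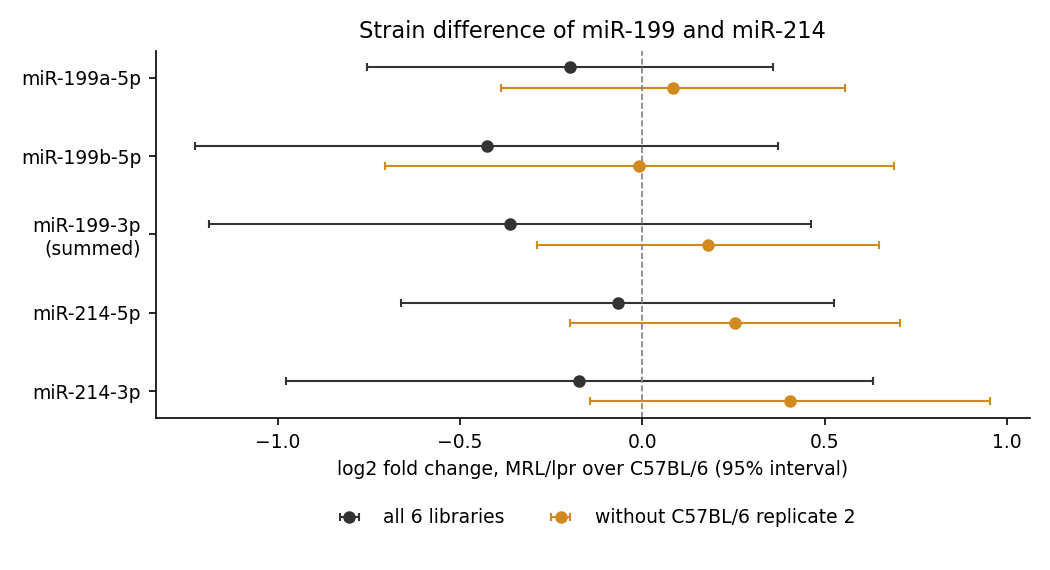
Log2 fold change (MRL/lpr over C57BL/6) of each member row, points, with 95% intervals from the edgeR fit, for all 6 libraries (black) and without C57BL/6 replicate 2 (orange). Every interval includes 0; the 5 black points lie below 0, and 4 of the 5 orange points lie above it.

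The order of levels among the rows was the same in all 6 libraries: summed miR-199-3p, miR-199a-5p, miR-214-3p, miR-214-5p and miR-199b-5p. Their means over the 6 libraries were 3252, 659, 105, 53.1 and 37.0 CPM, and the ranges of the first 4 over the libraries did not overlap. The last 2 came closest, with miR-214-5p and miR-199b-5p at 43.0 and 37.4 CPM in C57BL/6 replicate 1, and their ranges over libraries overlapped. Together the 5 rows took 0.295% to 0.713% of the counts of a library, most in C57BL/6 replicate 2.

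The split of the miR-199 3p counts between the names a and b cannot be read from the letters of these arms, which are identical. C57BL/6 replicate 3 had 15070 of 15312 counts under miR-199b-3p, or 98.4% (95% Wilson interval 98.2% to 98.6%, for counting error only). The other 5 libraries had 0.0399% to 1.38% under that name. In the same C57BL/6 replicate 3, miR-199b-5p took 4.60% of the miR-199 5p counts (95% Wilson interval 3.98% to 5.31%), within the 3.58% to 6.43% seen over the other libraries. The 5p arms, which the table lists under separate names, thus showed no such switch in that library. The authors' rule for reads that match several names is not stated in the labels or the file header.

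**Figure D3:**
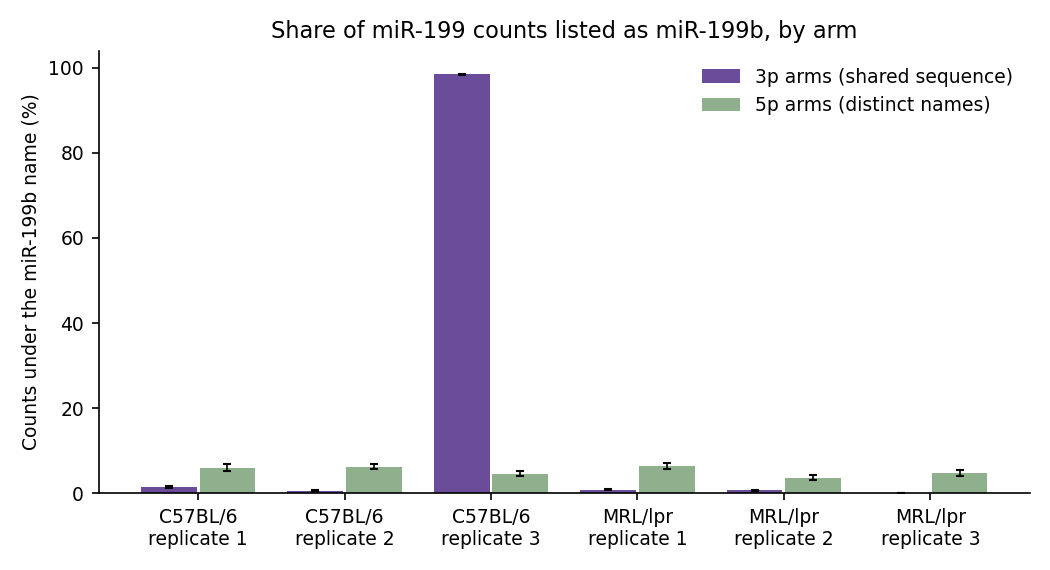
Share of miR-199 counts (%) listed under the miR-199b name in each library, for the 3p arms (purple) and the 5p arms (green), with 95% Wilson intervals for counting error. The 3p share is 98.4% in C57BL/6 replicate 3 and at most 1.38% elsewhere, while the 5p share stays between 3.58% and 6.43% in all 6 libraries.

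Kept as separate entries, the 3p names gave fold changes that depended on this 1 library. The entry mmu-miR-199b-3p had 37.6, 36.6 and 2347 CPM for C57BL/6 and 28.8, 16.7 and 0.993 CPM for MRL/lpr. Its groups did not overlap (28.7% of all rows did not), and its log2 fold change was -5.70 ± 2.59 SE (edgeR adjusted p = 0.308), against -1.29 without C57BL/6 replicate 3 (edgeR adjusted p = 0.591). The entry mmu-miR-199a-3p had 2698, 5815 and 37.7 CPM for C57BL/6 and 3589, 2415 and 2488 CPM for MRL/lpr, with a log2 fold change of -0.0099 ± 1.56 SE, or -0.62 without C57BL/6 replicate 3 (edgeR adjusted p = 0.997 and 0.382). Summing removed the switch and brought the SE of the 3p row to 0.35. With the entries separate, 28 rows of the table (6.21%) were called in place of 30, and all 28 were among the 30.

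The 5p counts under the miR-199b and miR-199a names were also compared as a ratio. The sequence of miR-199b-5p was not at hand, and the handling of reads that match several names is not stated. Whether the ratio follows the balance between the hairpins was therefore not tested. miR-199b-5p stood at 6.26%, 6.62% and 4.82% of the miR-199a-5p level for C57BL/6 and at 6.87%, 3.72% and 4.85% in MRL/lpr. Both the highest and the lowest value came from MRL/lpr. The difference in log2 ratio was -0.22 (C57BL/6 mean -4.06 ± 0.23, MRL/lpr mean -4.28 ± 0.43; SD, n = 3; p = 0.7 by exact two-sided permutation, which cannot go below 0.1 with 3 against 3). This ratio and the next form a family of 2, with Benjamini-Hochberg adjusted p-values of 0.7 and 0.4.

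The ratio of miR-214-3p to the summed miR-199-3p compares products of the Dnm3os transcript, although miR-199-3p also comes from the other loci. miR-214-3p stood at 2.75%, 3.13% and 3.21% of the miR-199-3p level for C57BL/6 and at 3.31%, 4.05% and 3.17% in MRL/lpr. The groups overlapped only through MRL/lpr replicate 3. The difference in log2 ratio was 0.21 (means -5.03 ± 0.12 and -4.83 ± 0.19; SD, n = 3; p = 0.2 by exact two-sided permutation). C57BL/6 replicate 2 had the middle value of its group here, although both miRNAs were at their highest in it.

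In both hairpin families the 3p arm was the more abundant arm in every library. After adding 1 CPM to each arm, the ratio of 3p to 5p for miR-199 (all 3p over all 5p) was 4.30, 5.84 and 3.95 for C57BL/6 and 5.13, 3.30 and 5.03 for MRL/lpr. For miR-214 it was 1.74, 2.43 and 1.67 for C57BL/6 and 2.12, 2.00 and 1.53 for MRL/lpr. Values of the strains intermixed for both families. In a limma test over 109 hairpins with both arms, of which 4 passed (3.67%), the MRL/lpr minus C57BL/6 difference in log2 of 5p over 3p was 0.074 ± 0.27 SE for miR-199 (limma adjusted p = 0.876) and 0.039 ± 0.26 SE for miR-214 (limma adjusted p = 0.923). Both turned negative without C57BL/6 replicate 2, at -0.093 ± 0.29 SE for miR-199 (limma adjusted p = 0.905) and -0.13 ± 0.28 SE for miR-214 (limma adjusted p = 0.834). The miR-199 difference was also negative without MRL/lpr replicate 2 (-0.13), and the miR-214 difference without MRL/lpr replicate 3 (-0.10).

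The members shared a pattern across the libraries. All 5 rows were highest of the 6 libraries in C57BL/6 replicate 2 (24% of all 450 rows were). For 4 of the 5, all but miR-199a-5p, MRL/lpr replicate 1 was next highest. How many of all rows had that second place was not counted, and the 5 rows include both arms of the same hairpins. The ratio of C57BL/6 replicate 2 to the mean of C57BL/6 replicates 1 and 3 ran from 1.60 for miR-199a-5p to 2.41 for miR-214-3p, with a median of 1.91 against 0.967 over all rows. The coefficient of variation within C57BL/6 was 29.0% to 55.4% for the 5 rows, against a median of 24.7% over all rows. Within MRL/lpr it was 7.05% to 38.3%, against a median of 18.5%.

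The order of likeness to the summed miR-199-3p was taken from the root-mean-square difference of log2(CPM + 1) after each row was centred on its mean over the 6 libraries. Of 150 miRNAs ordered, the other 4 member rows held places 2 (miR-214-3p, difference 0.16), 4 (miR-199b-5p, 0.18), 6 (miR-214-5p, 0.25) and 10 (miR-199a-5p, 0.28), where the median difference was 0.53. Members were ordered whatever their level, while all other miRNAs had to reach a mean of 100 CPM, so miR-199b-5p and miR-214-5p, at means of 37.0 and 53.1 CPM, were placed among more abundant rows. The 5 most alike at a mean of at least 100 CPM were miR-350-3p (0.16), miR-214-3p, miR-15b-5p (0.18), miR-100-5p (0.23) and miR-96-5p (0.27). miR-350-3p, from no hairpin of this family, had 226, 372 and 198 CPM for C57BL/6 and 275, 193 and 229 CPM for MRL/lpr. Like 4 of the 5 member rows it was highest in C57BL/6 replicate 2 and next in MRL/lpr replicate 1. The likeness is a description over 6 libraries, which also differed in total counts and in the levels of the cell type lists. Its cause was not tested.

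**Figure D4:**
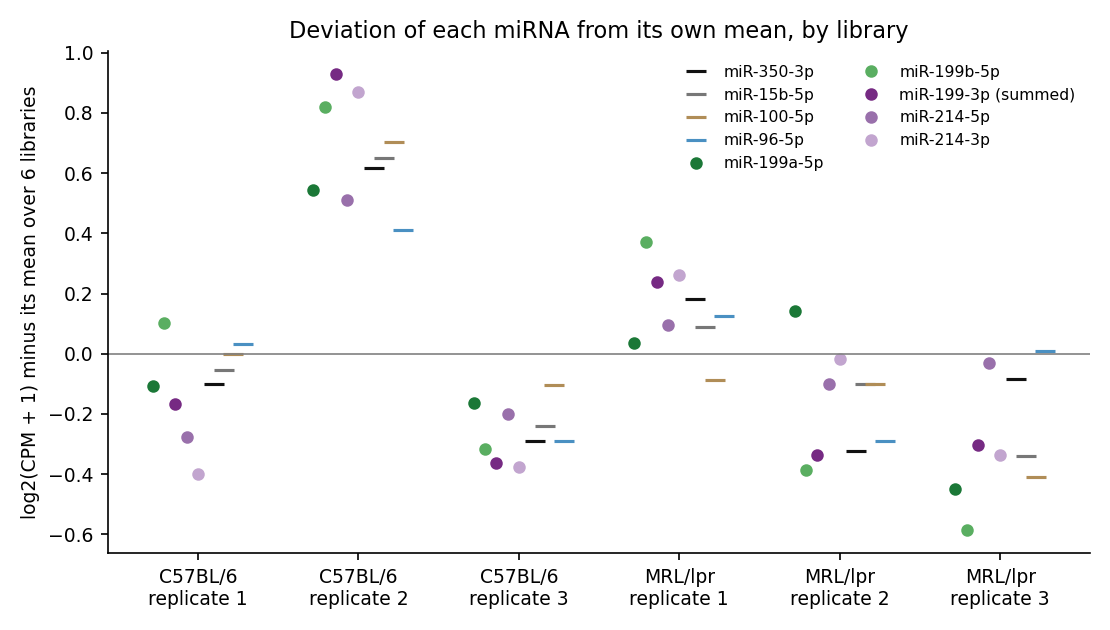
Deviation of log2(CPM + 1) from its mean over 6 libraries, for the 5 member rows (circles) and for miR-350-3p, miR-15b-5p, miR-100-5p and miR-96-5p (dashes), by library. Every row shown stands above its mean in C57BL/6 replicate 2, by 0.41 to 0.93, and all 5 member rows stand below their means in C57BL/6 replicate 3.

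Other miRNAs known from mesenchymal cells or the vascular wall were also read as a list. Of 10 listed, 9 were tested, 0 were called in either direction (6.67% of all rows were called), and 4 were highest of the C57BL/6 libraries in replicate 2, against 38.2% of all rows. Their summed level was 42015 to 47458 CPM in C57BL/6 and 32896 to 41750 CPM in MRL/lpr, none was at 0 throughout, and their median log2 fold change was -0.19 (-0.23 without C57BL/6 replicate 2). miR-143-3p, the most abundant of them and a smooth muscle miRNA, had means of 32035 ± 3668.9 CPM for C57BL/6 and 25451 ± 3787.5 CPM for MRL/lpr (SD, n = 3; edgeR adjusted p = 0.255). For miR-218-5p the means were 9418 ± 1344.5 and 8269 ± 1068.6 CPM (SD, n = 3), which did not pass either (edgeR adjusted p = 0.567). The listed miRNAs with the highest ratios of C57BL/6 replicate 2 to the other C57BL/6 libraries were miR-195a-5p (1.86) and miR-497a-5p (1.71), which share a cluster and were named after their values were seen.

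The matrix and fibrosis miRNAs, miR-21a and the miR-29 family, held 5 tested members, of which 0 were called and all 5 had log2 fold changes above 0 (median 0.38). miR-21a-5p, which is raised in injured kidneys, had 10640, 26458 and 9039 CPM for C57BL/6 and 20876, 16088 and 17873 CPM for MRL/lpr. Like 4 of the 5 member rows it was highest in C57BL/6 replicate 2 and next in MRL/lpr replicate 1. With all 6 libraries its log2 fold change was 0.25 (edgeR adjusted p = 0.761). That of miR-21a-3p, named after its values were seen, was 0.60 (edgeR adjusted p = 0.674). Leaving out C57BL/6 replicate 2, where both were highest, raises them in MRL/lpr by construction. In the fit without that library miR-21a-5p passed (log2 fold change 0.92, edgeR adjusted p = 0.00513), and so did miR-21a-3p (2.03, edgeR adjusted p = 0.00524). In that fit 11.5% of 469 rows were called, and none of the 5 member rows was. The difference between miR-21a and the members was not tested. miR-29b-3p, which represses collagen genes, had means of 994 ± 154 and 1530 ± 106 CPM (SD, n = 3) and did not pass (edgeR adjusted p = 0.0704).

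Markers of other cell types were compared between C57BL/6 replicate 2 and the other C57BL/6 libraries. The leukocyte and myeloid list was high in C57BL/6 replicate 2, as the members were, while the kidney epithelium and erythrocyte lists were low. All 7 leukocyte and myeloid miRNAs had their highest C57BL/6 value there, with a median ratio of 2.96. miR-155-5p, an activation miRNA of lymphocytes and macrophages, was the 1 of the 7 called over all libraries (log2 fold change 1.30, edgeR adjusted p = 0.0320), and without C57BL/6 replicate 2 all 7 had fold changes above 0, of which 6 were called higher in MRL/lpr, beside 42 of the 469 rows tested (8.96%). The seventh, miR-150-5p, had a log2 fold change of 0.71 there (edgeR adjusted p = 0.0582). Leaving that library out raises them and the miR-199 and miR-214 rows in MRL/lpr by construction. For kidney epithelium miRNAs the median ratio was 0.754 with 1 of 10 highest in that library, and endothelial miR-126a-3p and miR-126a-5p had ratios of 0.855 and 1.06. The 3 erythrocyte miRNAs had a median ratio of 0.114, with 0.188 for miR-451a and 0.0758 for miR-144-3p. Both miR-144-3p and miR-486a-5p, which gave the median, had only 3 counts in C57BL/6 replicate 2, so miR-451a alone was well counted there. Of these lists only the epithelial one held calls, with miR-204-5p (log2 fold change 1.52, edgeR adjusted p = 0.00130) and miR-802-5p (1.75, edgeR adjusted p = 0.00749) higher in MRL/lpr. The part of these cell types in the values of miR-199 and miR-214 was not tested.

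**Figure D5:**
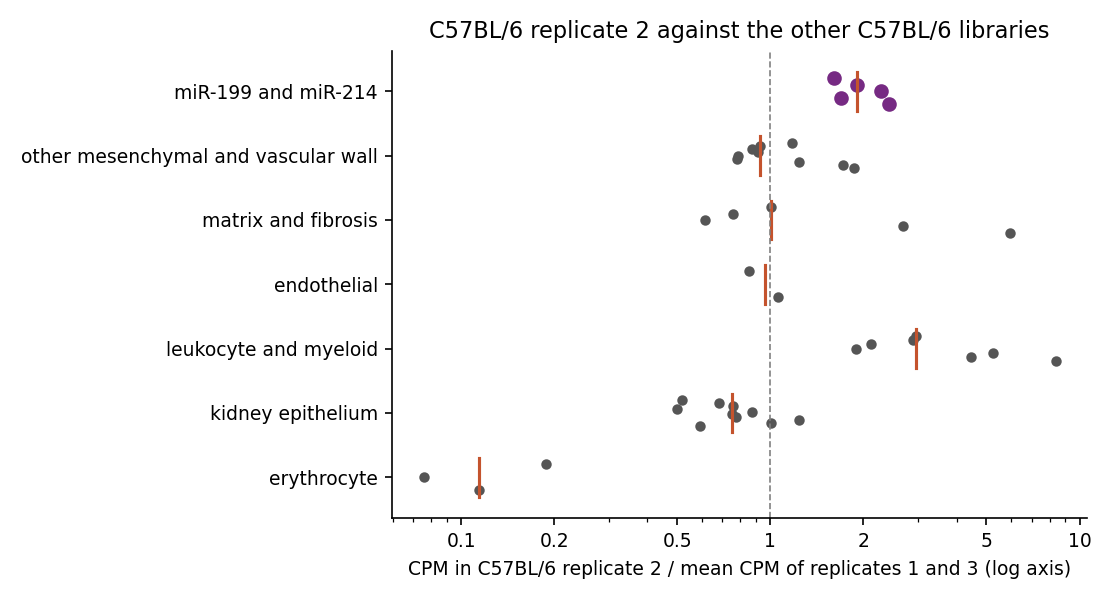
Ratio of CPM in C57BL/6 replicate 2 to the mean CPM of C57BL/6 replicates 1 and 3 (log axis), 1 point per miRNA, for the member rows (purple) and 6 marker lists (grey), with red bars for medians. The member rows lie between 1.60 and 2.41, while 7 of the 9 other mesenchymal miRNAs lie below 1.60, and the median of the members is below the leukocyte and myeloid median of 2.96.

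The promoter of Dnm3os is shown because Mir199a-2 and Mir214 lie in this transcript. Its part in the pattern of the members across libraries was not tested. The window runs from 250 bases before to 50 bases after the start (GRCm38.p6, plus strand, chr1:162217373-162217672, RefSeq). Capitals mark matches to the E-box motif CANNTG, which is its own reverse complement, so that both strands are covered, and which is bound by basic helix-loop-helix factors, among them Twist1, a mesenchymal regulator known to act on this transcript.
Dnm3os: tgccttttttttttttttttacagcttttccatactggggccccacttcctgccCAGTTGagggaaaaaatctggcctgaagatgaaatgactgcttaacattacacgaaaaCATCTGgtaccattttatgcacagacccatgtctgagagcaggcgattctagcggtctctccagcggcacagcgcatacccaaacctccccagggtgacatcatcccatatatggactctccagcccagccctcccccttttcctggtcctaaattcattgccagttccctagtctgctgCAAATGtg
The window held 3 matches that do not overlap. Of 32851 promoter windows of the same length, 72.3% held at least 1 match and 17.6% held at least 3. The matches are a description of the letters and not of binding.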

How the data were processed

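Small RNA libraries were made from kidney RNA by adapter ligation, PCR and size selection on gels, per the labels' protocols. The authors deposited whole-number counts per mature miRNA, not normalized, and 352 of the 1542 entries carry predicted names. Bowtie2, DESeq2 and GRCm38.p6 are named in the submitters' processing notes, with no role. The annotation and the handling of strand and multiply matching reads are not stated in the labels, and PCR copies may be counted as molecules.

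Column names were tied to sample titles through group, age and replicate number. Counts of miR-199a-3p and miR-199b-3p were summed, and the whole table was fitted in R 4.3.3 with edgeR 4.0.16 (filterByExpr, minimum count 10 and minimum total 15; TMM; robust quasi-likelihood, group only; biological coefficient of variation 33.0%; Benjamini-Hochberg adjustment, threshold 0.05). Arm ratios were tested with limma 3.58.1 on log2 CPM ratios after adding 1, for hairpins with both arms at 1 CPM or more and an arm at 10 or more. Ratios between members were compared by exact permutation. The scripts were tested on simulated data.

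The members and lists were chosen with earlier results of these data known. Named miRNAs were the members, list miRNAs that passed (otherwise the 2 highest by CPM), and the 5 most like the summed miR-199-3p. Named beyond this rule were the leukocyte and myeloid miRNAs other than miR-155-5p, and miR-21a-3p, miR-195a-5p, miR-497a-5p and miR-486a-5p. Alternatives were other scalings, filters and tools (DESeq2 1.42.0, limma-voom), the replicate block, separate 3p entries and leaving out each library. Separate entries without C57BL/6 replicate 3, and lists without C57BL/6 replicate 2, were added after seeing the data. Figures were drawn with matplotlib 3.10.9.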

Additional observations from a re-analysis of the deposited data

How the results depend on the processing

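None of the 5 member rows was called under any alternative run, and edgeR, DESeq2 and limma-voom adjusted p-values ran from 0.303 to 0.990. Directions turned in few settings: miR-214-5p was 0.072 with library totals. With each library left out in turn, log2 fold changes ran from -0.37 to 0.084 for miR-199a-5p, from -0.76 to -0.0089 for miR-199b-5p, from -0.64 to 0.18 for the summed miR-199-3p, from -0.26 to 0.25 for miR-214-5p and from -0.43 to 0.40 for miR-214-3p, each highest without C57BL/6 replicate 2. Arm differences ran from -0.13 to 0.19 for miR-199 and from -0.13 to 0.14 for miR-214, turning below 0 without C57BL/6 replicate 2 for both, without MRL/lpr replicate 2 for miR-199 and without MRL/lpr replicate 3 for miR-214. Ratios between members kept their direction in all 8 alternatives each.

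Counts of called rows (20 higher, 10 lower) became 34 and 30 with no filter, 32 and 20 with DESeq2, and 24 and 5 with library totals. Leave-one-out gave 2 to 42 higher and 3 to 12 lower. Same-numbered libraries showed no clear likeness (correlations of their deviations -0.37, 0.060 and -0.31, and 0 of 3 C57BL/6 libraries matched their own number best). With so few libraries this cannot exclude pairing by number. The replicate block gave 8 higher and 5 lower. Precision is limited by 3 libraries a group and, for miR-199b-5p, by 136 to 387 counts a library; the share of each in the width of the intervals was not tested.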
